A study of Mus musculus with 12 samples.

Results

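The IFN-γ receptor and the Janus kinases were followed as 6 genes, Ifngr1, Ifngr2, Jak1, Jak2, Jak3 and Tyk2, chosen by gene name from the 53379 gene identifiers of the count table. All 6 passed the filter on low counts and were among the 14299 genes tested. The cells were an Eµ-myc lymphoma line, a B cell line of C57BL/6 mice in which an immunoglobulin heavy chain enhancer drives Myc. Polyadenylated RNA was sequenced in 12 libraries, 3 in each of 4 groups. Unstimulated cells received no IFN-γ. The other groups received recombinant mouse IFN-γ at 5 ng/mL for 1 h, 6 h or 24 h, and shorter exposures were ended with 50 µg/mL of XMG1.2, an antibody that neutralises IFN-γ. Cells were collected 24 h post stimulation, read here as counted from its start, so the 1 h and 6 h libraries carry what remained at 24 h after a short exposure and not the state at 1 h or 6 h. The labels do not say whether 24 h or unstimulated cells also received antibody, when unstimulated cells were collected, or whether the libraries of a group came from separate cultures. The p-values therefore measure the spread between these libraries, which may be technical. The data come from a single cell line.

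IFN-γ binds the Ifngr1 chain, and Ifngr2 completes the receptor. Jak1 is bound to Ifngr1 and Jak2 to Ifngr2, and together these kinases phosphorylate the receptor and then STAT factors, which dimerise and bind GAS elements at target genes such as Irf1. The remaining kinases serve other cytokines: Jak3 binds the common gamma chain (Il2rg) of the receptors for IL-2, IL-4, IL-7 and IL-15, and Tyk2 binds Ifnar1 of the type I interferon receptor as well as chains of the IL-10 and IL-12 receptors.

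Of the 6 genes, Jak3 was the 1 that passed the test against unstimulated cells after 24 h. Promoter windows are shown for Jak3 and for Irf1, a target gene, at the start whose window held a GAS match. Each runs from 250 bases before to 50 bases after a RefSeq start on GRCm38.p6, at chr8:71676133-71676432 for Jak3 and chr11:53769764-53770063 for Irf1, both on the plus strand. Capitals mark matches to the GAS letters TTCNNNGAA or to the core of the interferon-stimulated response element, a pair of GAAA sites 2 bases apart, searched on both strands.
Jak3: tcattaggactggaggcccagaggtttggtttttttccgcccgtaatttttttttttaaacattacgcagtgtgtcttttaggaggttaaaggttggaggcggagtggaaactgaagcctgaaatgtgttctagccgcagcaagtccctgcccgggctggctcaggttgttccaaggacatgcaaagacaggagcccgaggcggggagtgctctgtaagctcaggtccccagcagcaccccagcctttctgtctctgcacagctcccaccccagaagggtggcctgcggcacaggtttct
Irf1: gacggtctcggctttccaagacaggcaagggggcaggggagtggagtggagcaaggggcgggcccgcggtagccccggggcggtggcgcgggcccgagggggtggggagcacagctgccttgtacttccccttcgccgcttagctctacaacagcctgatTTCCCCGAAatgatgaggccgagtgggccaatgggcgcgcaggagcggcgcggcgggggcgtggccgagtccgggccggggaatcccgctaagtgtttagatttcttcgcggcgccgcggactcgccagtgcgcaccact
This Irf1 window held 1 GAS match, TTCCCCGAA, which begins 90 bases before the start. A second RefSeq start of Irf1 has its window at chr11:53770223-53770522, which held neither motif. Neither motif was found in the Jak3 window or in the windows of the other 5 genes. Of 32851 RefSeq promoter windows, 8.3% held the GAS letters and 3.44% the response element core. The Jak3 window had the lowest GC content of the 6 windows, at 54.3% with 9 CpG dinucleotides, and the Jak2 window the highest, at 81.0% with 44. A match is a run of letters and not a measured binding site.

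On GRCm38, Ifngr1 (ENSMUSG00000020009.12) lies on chromosome 10 from 19591949 to 19610229, on the plus strand. Ifngr2 (ENSMUSG00000022965.7) lies on chromosome 16 from 91547072 to 91565623, on the plus strand. Jak1 (ENSMUSG00000028530.14) lies on chromosome 4 from 101152367 to 101265282, on the minus strand. The longest coding transcript has 7 exons in each receptor gene and 25 exons in each of the 4 kinase genes. Jak2 (ENSMUSG00000024789.12) spans chromosome 19 from 29251828 to 29313080, on the plus strand. Jak3 (ENSMUSG00000031805.17) spans chromosome 8 from 71676296 to 71690575, on the plus strand. Tyk2 (ENSMUSG00000032175.11) spans chromosome 9 from 21104068 to 21131243, on the minus strand. Annotated neighbours share exon bases with 3 of the genes. Insl3 shares 404 bases with Jak3 on the same strand and had 52 counts over all 12 libraries, against 16284 for Jak3. The antisense transcript 1700084C06Rik shares 554 bases with Tyk2 and had 132 counts, against 19940 for Tyk2. Raver2 shares 4 bases with Jak1 on the other strand and had 0 counts. The sources used here do not give the strand setting of the counting, so reads in the shared antisense bases of Tyk2 cannot be assigned to a strand.

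Library totals ran from 49440358 to 67096610 counts. All 10 B cell and lymphoma markers averaged at least 1 CPM, the count scaled for library depth and TMM factors, in every group. The T and NK cell markers Cd4, Cd8a and Ncr1 were at 0 in all libraries, while Cd3g ran from 0.4435 to 1.133 CPM. The 8 markers of that list summed to 0.692 to 1.37 CPM. Of the myeloid markers, Lyz2, Adgre1, Cd14 and Mpo did not exceed 0.102 CPM and Csf1r did not exceed 0.284 CPM. Itgam ran from 0.996 to 2.71 CPM. The list of stromal, epithelial and endothelial markers was carried by Pecam1, and its other 4 genes did not exceed 0.0361 CPM. The summed level of that list was 87.2 to 91.5 CPM in 24 h libraries and 57.4 to 58.9 CPM in unstimulated libraries, and its part in the results below was not tested. In a principal component analysis, the 24 h libraries stood apart from the other 9 on the axis of most variance (44.1%), and IFNg_6h replicate 3 stood apart on the next (7.8%). In bulk RNA, fewer cells with a transcript and less transcript per cell cannot be told apart.

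All 6 genes were transcribed in unstimulated cells, with Jak1 far above the rest. Per kilobase of exon, Jak1 stood at 24.9 CPM, Ifngr1 at 10.1, Ifngr2 at 6.05, Jak2 at 6.01, Tyk2 at 4.18 and Jak3 at 3.99 (means, n = 3). The libraries of Ifngr2 and Jak2 overlapped, and so did those of Tyk2 and Jak3. The other neighbours in this order did not overlap. Among 14281 tested genes with a length, Jak1 was at percentile 85.5 of this level, Ifngr1 at 68.5, and Jak3 and Tyk2 near the middle at 49.5 and 50.2. After 24 h of IFN-γ, Jak1 and Ifngr1 still led with 23.1 and 9.09 CPM per kilobase. Ifngr2 (6.83) and Jak2 (6.55) again overlapped. Jak3 stood at 5.29 ± 0.244 CPM per kilobase and Tyk2 at 4.33 ± 0.187 (SD, n = 3 each), without overlap of their libraries. The lower part of the order depends on the length used. With the length of the longest coding transcript, a choice made after seeing the data, the 24 h levels per kilobase were 7.05 CPM for Jak3, 6.94 for Ifngr2, 6.55 for Jak2 and 6.16 for Tyk2. All neighbours among these 4 genes overlapped, whereas Jak1 (34.0) and Ifngr1 (12.2) still led.

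**Figure D1:**
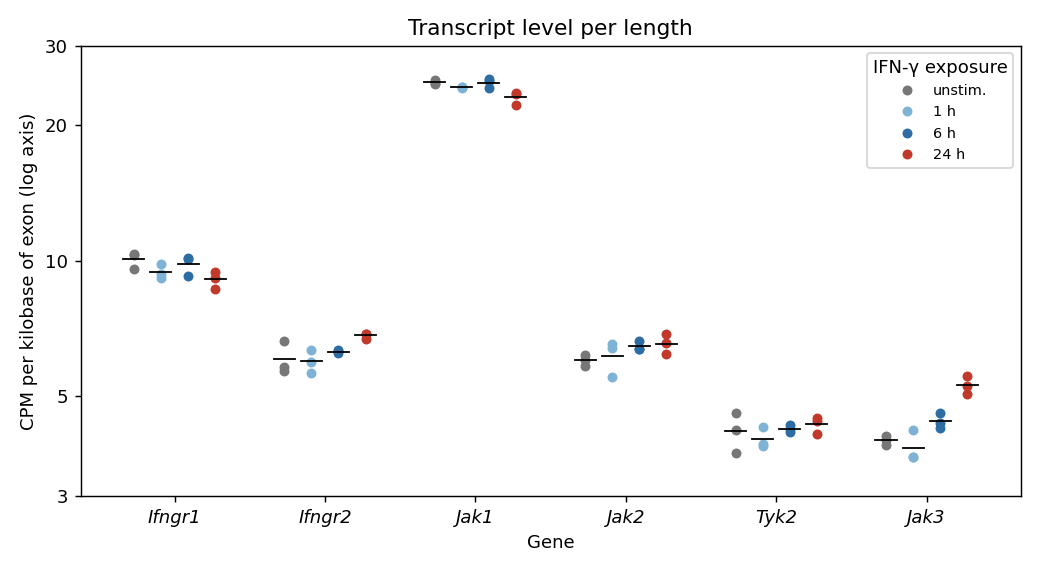
Level of each gene per length. The log axis gives CPM per kilobase of exon, points are libraries (3 per exposure), and bars are group means. Jak1 lies above every other gene in each group, and Jak3 after 24 h (mean 5.29) lies above its unstimulated libraries (mean 3.99).

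Neither receptor chain passed the test against unstimulated cells after any exposure. Ifngr1, the ligand-binding chain, had 27.3, 29.5 and 29.3 CPM in unstimulated libraries, 28.1, 26.0 and 26.6 CPM after 1 h, 28.9, 26.3 and 28.8 CPM after 6 h, and 26.1, 24.6 and 26.9 CPM after 24 h. Each 24 h library lay below each unstimulated library, while the 1 h and 6 h libraries overlapped the unstimulated ones. The log2 fold change of Ifngr1 at 24 h was -0.15 ± 0.06 (SE; edgeR adjusted p = 0.102), with a 95% interval of 0.826 to 0.987 for the fold. Ifngr2, the accessory chain, had 21.5, 21.9 and 25.0 CPM in unstimulated libraries, 22.5, 23.9 and 21.2 CPM after 1 h, 23.4, 23.8 and 23.8 CPM after 6 h, and 26.0, 25.9 and 25.3 CPM after 24 h. The 24 h libraries of Ifngr2 lay above all other 9, the nearest being an unstimulated library at 25.0 CPM. Its log2 fold change at 24 h over unstimulated cells was 0.17 ± 0.07 (edgeR adjusted p = 0.0725), with an interval of 1.02 to 1.24 for the fold. In this comparison 1 of the 6 fits with a library left out passed, without unstimulated replicate 3 (0.25, edgeR adjusted p = 0.0177). The highest edgeR adjusted p of these fits was 0.257. Over 1 h cells the log2 fold change of Ifngr2 at 24 h was 0.19 ± 0.07 and passed the test (edgeR adjusted p = 0.0443). Of the 6 fits without 1 of the libraries compared, 5 lost this call, with adjusted p up to 0.198 without IFNg_1h replicate 3.

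The chains lay on opposite sides of their unstimulated levels at 24 h, which fixes that their ratio also lies apart, so the ratio within each library is given as a description of the balance between them. The ratio of Ifngr1 to Ifngr2 counts was 1.01, 0.951 and 1.06 in 24 h libraries and 1.27, 1.34 and 1.17 in unstimulated libraries. The 1 h libraries ran from 1.09 to 1.26 and the 6 h libraries from 1.11 to 1.23, each overlapping the unstimulated range. Per kilobase of exon, the ratio was 1.33 ± 0.074 in 24 h libraries and 1.67 ± 0.115 in unstimulated libraries (SD, n = 3 each), so Ifngr1 remained the more abundant chain on that scale.

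Neither kinase of the IFN-γ receptor passed the test against unstimulated cells. Jak1 had 178, 179.5 and 182 CPM in unstimulated libraries, 175, 176 and 175 CPM after 1 h, 183, 181 and 175 CPM after 6 h, and 170.0, 170.3 and 160.0 CPM after 24 h. All 24 h libraries of Jak1 were below the other 9. The log2 fold change over unstimulated cells was -0.11 ± 0.04, with an interval of 0.875 to 0.980 for the fold, and it did not pass (edgeR adjusted p = 0.0520). DESeq2 and limma-voom gave adjusted p = 0.0296 and 0.0463, so this gene lies at the threshold. It passed in 0 of the 6 fits without 1 of the libraries compared (edgeR adjusted p from 0.067 to 0.217). Jak2 had 29.3, 30.3 and 31.1 CPM in unstimulated libraries, 32.9, 32.2 and 27.8 CPM after 1 h, 33.4, 32.1 and 32.1 CPM after 6 h, and 34.6, 33.1 and 31.2 CPM after 24 h. Its lowest 24 h library (31.15 CPM) and its highest unstimulated library (31.13 CPM) nearly touched. The log2 fold change of Jak2 at 24 h was 0.12 ± 0.06 (edgeR adjusted p = 0.196).

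Jak3 was the gene of the 6 that passed the test against unstimulated cells, and it did so after 24 h. It had 21.8, 20.9 and 21.4 CPM in unstimulated libraries, 19.6, 19.6 and 22.5 CPM after 1 h, 22.7, 23.4 and 24.6 CPM after 6 h, and 28.2, 27.1 and 29.7 CPM after 24 h. Every 24 h library lay above the other 9, and every 6 h library above the unstimulated ones. At 24 h Jak3 was 1.33-fold higher than in unstimulated cells, with an interval of 1.21 to 1.46 and a log2 fold change of 0.41 ± 0.07 (edgeR adjusted p = 4.25e-05). It was also 1.20-fold higher than after 6 h (interval 1.09 to 1.32, edgeR adjusted p = 0.00545) and 1.38-fold higher than after 1 h (interval 1.25 to 1.51, edgeR adjusted p = 5.97e-06). These 3 calls held in all 17 alternative fits of each comparison. For 24 h over 6 h cells these include the fit without IFNg_6h replicate 3, where the log2 fold change was 0.31. The 6 h cells themselves did not pass against unstimulated cells, at 0.14 ± 0.07 on the log2 scale (edgeR adjusted p = 0.339). Insl3, which shares exon bases with Jak3, had 22 counts over the 24 h libraries and 10 over the unstimulated libraries.

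Tyk2 had 31.5, 25.7 and 29.0 CPM in unstimulated libraries, 27.0, 26.7 and 29.3 CPM after 1 h, 29.1, 28.6 and 29.6 CPM after 6 h, and 28.3, 30.3 and 30.7 CPM after 24 h. Its groups overlapped throughout, and the unstimulated libraries spanned the widest range. The log2 fold change at 24 h was 0.05 ± 0.07 (edgeR adjusted p = 0.662), and the interval of the fold ran from 0.941 to 1.14.

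**Figure D2:**
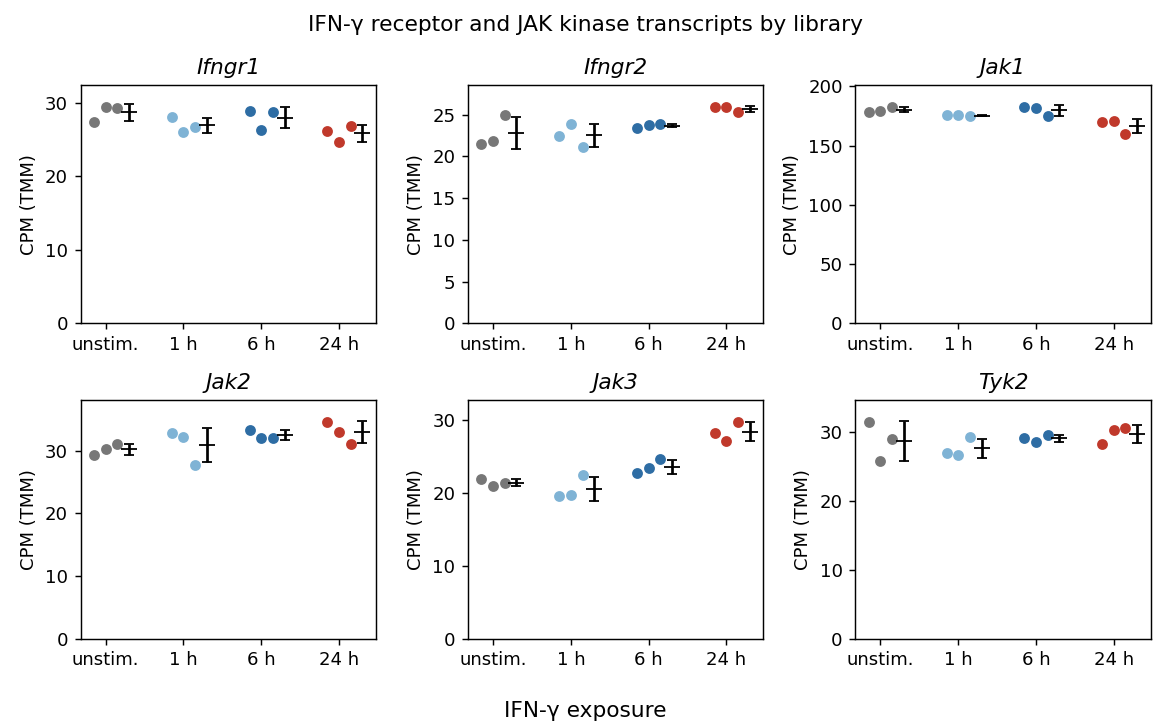
CPM of the 6 genes in each of the 12 libraries by IFN-γ exposure, from unstimulated to 24 h; every axis starts at 0. Points are libraries, the black mark gives the mean and SD of a group (n = 3), and the 24 h libraries of Jak3 (27.1 to 29.7 CPM) lie above all of its others.

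Within the kinase family, the share of each kinase in the summed level per kilobase was computed library by library. Jak3 made up 13.2%, 12.8% and 14.5% of the 4 kinases in 24 h libraries and 10.4%, 10.1% and 10.1% in unstimulated libraries. Jak1 made up 58.8% ± 0.92 in 24 h libraries and 63.7% ± 0.751 in unstimulated libraries (SD, n = 3 each). These shares follow from the levels given above for Jak3 and Jak1 and add no separate comparison. The ratio of Jak3 to Jak1 counts was 0.170 ± 0.0138 in 24 h libraries and 0.119 ± 0.00317 in unstimulated libraries, and the ratio of Jak2 to Jak1 counts 0.198 ± 0.0053 and 0.168 ± 0.0032 in the same groups. The summed level of all 6 genes was 309 ± 5.05 CPM in 24 h libraries and 312 ± 5.46 CPM in unstimulated libraries. Jak1 alone averaged 166.8 CPM in 24 h libraries and 180.1 CPM in unstimulated libraries. The sum joins genes with log2 fold changes of opposite sign.

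Counted over the 6 genes, 1 was called at 24 h against unstimulated cells (higher, Jak3), where 18.7% of all tested genes were called and 10.3% were called higher. The libraries did not overlap for 5 of the 6, against 34.1% of all tested genes, and 4 had an unadjusted p under 0.05, against 30.2%. The median log2 fold change was 0.09 over the 6 genes and -0.003 over all tested genes. After 6 h, edgeR called 0 of the 6 where it called 1.59% of all tested genes. DESeq2 and limma-voom also called 0, and 1 gene, Jak3, had an unadjusted p under 0.05, against 14.0% of all tested genes. The 95% intervals of the 6 h folds lay between 0.892 and 1.22. The ranges of Jak2 and Jak3 did not overlap those of unstimulated cells, 2 of 6 against 16.8% of all tested genes. After 1 h, edgeR called 0 of the 6 where it called 0.42% of all tested genes, DESeq2 and limma-voom called 0, and 0 had an unadjusted p under 0.05, against 9.26% of all tested genes. The intervals of the 1 h folds lay between 0.858 and 1.12, and only the ranges of Jak1 did not overlap, 1 of 6 against 14.8%. These comparisons share the unstimulated libraries.

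**Figure D3:**
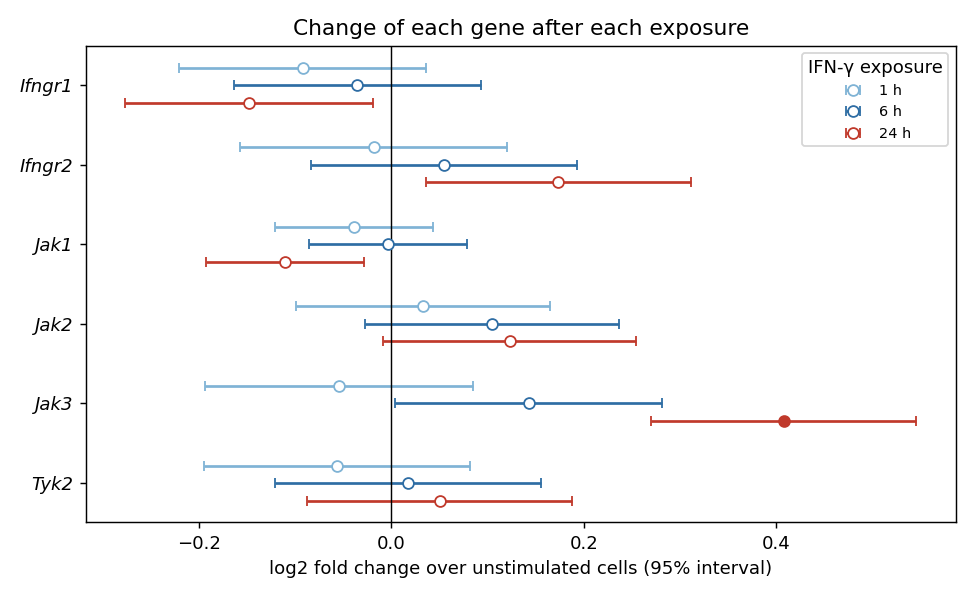
Log2 fold change of each gene over unstimulated cells after 1 h, 6 h and 24 h of IFN-γ, with 95% intervals from edgeR; a filled point passed at adjusted p under 0.05. Jak3 after 24 h (0.41) is the filled point.

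Between exposures, 24 h cells had 1 of the 6 genes called against 6 h cells (Jak3, higher), where 16.5% of all tested genes were called and 8.92% were called higher. Jak1 had a log2 fold change of -0.11 ± 0.04 in this comparison and did not pass (edgeR adjusted p = 0.0677). Of the 6 fits without 1 of the libraries compared, 1 passed, the fit without IFNg_6h replicate 3 (-0.12, edgeR adjusted p = 0.0410). The highest edgeR adjusted p of the 6 was 0.279. Against 1 h cells, 2 of the 6 were called at 24 h (Jak3 and Ifngr2, both higher), where 18.9% of all tested genes were called and 10.2% were called higher. Between 6 h and 1 h cells edgeR called 0 of the 6 where it called 0.0979% of all tested genes, and DESeq2 and limma-voom called 0. Jak3 was the 1 gene there with an unadjusted p under 0.05, against 4.94% of all tested genes, at 0.20 ± 0.07 on the log2 scale (edgeR adjusted p = 0.700).

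The genes whose pattern was most like that of Jak3 were Dgka, Plxdc1 and Tbc1d10c, with Pearson r of 0.967, 0.967 and 0.963 of log2 CPM over the 12 libraries, among 8523 genes compared. These libraries share the split of the 24 h group from the rest. Dgka, which encodes a diacylglycerol kinase, averaged 15.1 ± 1.03 CPM in 24 h cells and 10.4 ± 0.946 CPM in unstimulated cells. Plxdc1 averaged 23.9 ± 1.96 CPM in 24 h cells and 11.2 ± 1.45 CPM in unstimulated cells. Tbc1d10c averaged 42.0 ± 2.22 CPM in 24 h cells and 34.2 ± 1.97 CPM in unstimulated cells (SD, n = 3 each).

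Chains of the receptors that share the common gamma chain were taken as a group after values had been seen, 7 of 8 tested. Among them, 2 were called higher and 2 lower at 24 h than in unstimulated cells, where 10.3% of all tested genes were called higher and 8.35% lower. Il15ra averaged 38.7 ± 2.14 CPM in 24 h cells and 28.1 ± 0.319 CPM in unstimulated cells, and Il4ra 14.1 ± 0.729 CPM in 24 h cells and 10.1 ± 0.82 CPM in unstimulated cells. The IL-2 receptor alpha chain Il2ra was lower, at 61.1 ± 0.87 CPM in 24 h cells and 86.4 ± 6.9 CPM in unstimulated cells, as was the IL-7 receptor chain Il7r, at 238.6 ± 6.01 CPM in 24 h cells and 324 ± 26.4 CPM in unstimulated cells. Since the group was picked with its values known, these counts are a description. The common gamma chain Il2rg, the partner of Jak3, averaged 28.1 ± 2.41 CPM in 24 h cells and 24.4 ± 1.5 CPM in unstimulated cells and did not pass (log2 fold change 0.20 ± 0.08, edgeR adjusted p = 0.0683). It passed at 24 h against 6 h cells (0.35 ± 0.08, edgeR adjusted p = 0.00198) and against 1 h cells (0.35 ± 0.08, edgeR adjusted p = 0.00139). For the type I interferon receptor, Ifnar1, which binds Tyk2, averaged 40.8 ± 1.55 CPM in 24 h cells and 38.1 ± 0.869 CPM in unstimulated cells (edgeR adjusted p = 0.222). Ifnar2 averaged 20.5 ± 1.47 CPM in 24 h cells and 16.8 ± 1.34 CPM in unstimulated cells and passed (edgeR adjusted p = 0.00925). That call was lost without unstimulated replicate 1 (adjusted p = 0.0738) and without IFNg_24h replicate 3.

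Other genes of the pathway were counted list by list at 24 h against unstimulated cells, where 10.3% of all tested genes were called higher and 8.35% lower. Of 38 chains of JAK-coupled receptors other than Ifngr1 and Ifngr2, 23 were tested, 7 were higher and 3 lower. The median log2 fold change of the tested chains was 0.20. The receptor chains named in the paragraph above are part of this list, and their calls are counted again here. Lifr averaged 2.80 ± 0.239 CPM in 24 h cells and 1.13 ± 0.239 CPM in unstimulated cells, and Il10ra, a receptor chain that signals through Jak1, 6.60 ± 1.12 CPM in 24 h cells and 4.32 ± 0.617 CPM in unstimulated cells. Il12rb1, which binds Tyk2 and was picked after its values were seen, was higher with 504 counts over the 24 h libraries and 34 over the unstimulated libraries. Among the STAT genes, which encode substrates of the kinases, Stat3 and Stat2 were higher. Stat3 averaged 145 ± 3.89 CPM in 24 h cells and 85.4 ± 3.7 CPM in unstimulated cells, and Stat2 35.6 ± 1.63 CPM in 24 h cells and 24.5 ± 1.64 CPM in unstimulated cells. Stat5a, Stat5b and Stat6 had log2 fold changes of 0.02, -0.04 and -0.05 and did not pass. Of 20 tested inhibitors of the pathway, 5 were higher and 2 lower, with a median of -0.03. Socs1, which blocks the JAK kinases directly, averaged 8.86 ± 0.429 CPM in 24 h cells and 0.382 ± 0.0189 CPM in unstimulated cells. Ptprc (CD45), a phosphatase that is also on the B cell marker list, averaged 254 ± 5.7 CPM in 24 h cells and 188 ± 2.57 CPM in unstimulated cells. The adaptor Sh2b3 was lower, at 50.9 ± 0.25 CPM in 24 h cells and 61.3 ± 3.02 CPM in unstimulated cells.

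Of 14 JAK adaptors and chaperones, 1 was higher and 1 lower. The STAT-interacting protein Nmi averaged 13.9 ± 0.822 CPM in 24 h cells and 9.59 ± 0.583 CPM in unstimulated cells. Crkl averaged 63.4 ± 2.06 CPM in 24 h cells and 70.2 ± 2.5 CPM in unstimulated cells (edgeR adjusted p = 0.0447), and that call was lost in each of the 6 fits without 1 of these libraries, up to adjusted p = 0.195 without IFNg_24h replicate 1. Of 27 non-receptor tyrosine kinases of other families, 16 were tested. Among these, 2 were higher and 6 lower, with a median of -0.08, where 10.3% of all tested genes were called higher and 8.35% lower. The B cell receptor kinase Syk averaged 439 ± 9.98 CPM in 24 h cells and 528 ± 16.2 CPM in unstimulated cells. Ptk2b averaged 43.3 ± 0.274 CPM in 24 h cells and 53.6 ± 2.76 CPM in unstimulated cells, whereas the Src family kinase Fyn was higher, at 36.5 ± 1.13 CPM in 24 h cells and 29.9 ± 0.463 CPM in unstimulated cells. All 12 IFN-γ targets of the list were higher at 24 h, with a median log2 fold change of 2.68. The list was chosen with earlier results of these data known, so its counts here and after the shorter exposures are a description. Irf1 averaged 221 ± 8.92 CPM in 24 h cells and 10.6 ± 0.245 CPM in unstimulated cells. The guanylate-binding protein Gbp2 averaged 962 ± 11.2 CPM in 24 h cells and 0.346 ± 0.127 CPM in unstimulated cells. The GTPase Iigp1 averaged 937 ± 12.1 CPM in 24 h cells, against 2 counts over the unstimulated libraries.

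After the shorter exposures, calls were found among the targets. At 6 h, 7 of the 12 targets were higher than in unstimulated cells, where 1.17% of all tested genes were called higher, with Gbp2 at 1.55 ± 0.182 CPM in 6 h cells and 0.346 ± 0.127 CPM in unstimulated cells. At 1 h, 3 were higher, B2m, H2-K1 and Nlrc5, where 0.273% of all tested genes were called higher. Of these, H2-K1 averaged 63.9 ± 2.55 CPM in 1 h cells and 45.1 ± 2.71 CPM in unstimulated cells. The B2m call was lost in 5 and the Nlrc5 call in 3 of the 6 fits without 1 library. Of the 23 other receptor chains tested, 1 was called at 6 h, the IL-6 receptor chain Il6ra. It averaged 74.3 ± 5.18 CPM in 6 h cells and 57.5 ± 1.82 CPM in unstimulated cells (log2 fold change 0.37 ± 0.05, edgeR adjusted p = 0.00014). In 24 h cells Il6ra averaged 63.85 ± 2.68 CPM and did not pass against unstimulated cells (edgeR adjusted p = 0.0557). It was called lower at 24 h than at 6 h (-0.22 ± 0.05, edgeR adjusted p = 0.00489), a call lost without IFNg_6h replicate 2.

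**Figure D4:**
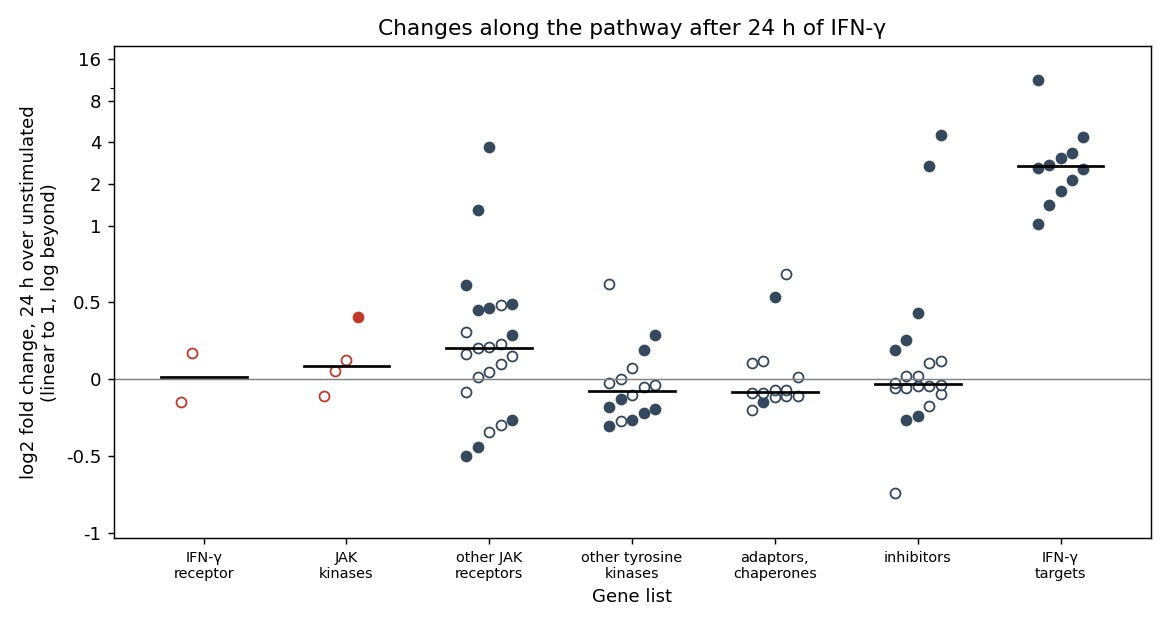
Log2 fold change at 24 h over unstimulated cells for the tested genes of the lists other than the STAT genes; the axis is linear up to 1 and logarithmic beyond. Each point is a gene, filled where edgeR's adjusted p was under 0.05, and bars are medians over all tested genes of a list, Iigp1 included; red points are the 6 genes described here. Iigp1, with 2 counts over the unstimulated libraries, is not drawn as a point. The 6 genes lie between -0.15 and 0.41, and the targets have a median of 2.68.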

How the data were processed

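The authors deposited raw counts per gene for 12 libraries of polyadenylated RNA, and these were used unchanged. The submitters' processing notes name the mm10 build, Picard, featureCounts 1.4.3-p1 and STAR 2.5.2a; neither annotation release nor strand setting is given in the sources used here. Counts were mostly even (69.9% to 73.9% of genes with 1 to 20 counts), as when each mate of a read pair is counted. The header doubles some separators, so its names were matched to columns after empty fields were dropped.

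Symbols were found for 53274 of 53379 identifiers (99.8%). Exon lengths and coordinates came from GENCODE M21 on GRCm38, whose versions differ for Ifngr1, Ifngr2 and Jak2. Genes were filtered with filterByExpr, scaled by TMM and fitted over all 12 libraries with edgeR 4.0.16 (R 4.3.3; robust quasi-likelihood F tests), and genes under 0.05 after Benjamini-Hochberg adjustment over 14299 genes were called. The code was tested on simulated data. Alternatives were DESeq2 1.42.0, limma-voom (limma 3.58.1), RLE factors, 2 filters, a replicate block, a fit of the 6 compared libraries alone, adjusted p under 0.01, halved counts, removal of length or GC trends, and each library left out. Standard errors are approximate.

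The 6 genes and the lists were chosen with earlier results of these data known. From each list were named the called genes where 5 or fewer were called, otherwise the 3 with the largest change and a mean of at least 1 CPM, with smaller sets for other comparisons, not all of which are given; the pattern neighbours were the 3 genes of highest r with a mean of at least 5 CPM. The result of 1 gene is not reported here.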

Additional observations from a re-analysis of the deposited data

How the results depend on the processing

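The Jak3 calls at 24 h against unstimulated, 6 h and 1 h cells held in all 17 alternatives of each comparison, with log2 fold changes of 0.37 to 0.44, 0.23 to 0.31 and 0.43 to 0.53. The number of the 6 genes called at 24 h against unstimulated cells was 1 in the main analysis. It was 2 with DESeq2, limma-voom, the filter of 1 CPM in 3 libraries, halved counts and the length trend removed (Jak1 was added in each). It was 3 with the GC trend removed (Jak1 and Ifngr2 added). With a library left out it was 1 to 2, where Ifngr2 was added without unstimulated replicate 3. Against 6 h cells it was 2 with DESeq2 and with the GC trend removed, and 1 to 2 with a library left out. Against 1 h cells it was 1 at adjusted p under 0.01 and with the length trend removed, where Ifngr2 was lost, and 1 to 2 with a library left out. The cause was not tested.

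Signs that turned belonged to values near 0 that were not called. Tyk2 at 6 h against unstimulated cells was -0.0007 with the length trend removed. With a library left out, Tyk2 ran from -0.0176 to 0.1273 at 24 h, from -0.0565 to 0.0882 at 6 h and from -0.1321 to 0.0124 at 1 h against unstimulated cells. Against the same cells, Ifngr1 at 6 h ran from -0.0698 to 0.0059, Jak1 at 6 h from -0.016 to 0.0118, Ifngr2 at 1 h from -0.0662 to 0.0491 and Jak2 at 1 h from -0.0153 to 0.1046. Jak2 ran from -0.013 to 0.0586 at 24 h against 6 h, and from -0.0009 to 0.1181 at 6 h against 1 h. The cause was not tested. Of the recomputed log2 fold changes of the 6 genes, 582 kept their direction and side of the threshold, 11 newly passed it, 7 no longer passed it and 12 turned sign.

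Over all tested genes, calls at 24 h against unstimulated cells numbered 2667, and 1562 at adjusted p under 0.01. At 6 h they numbered 228, with a range of 80 to 531 (the highest without IFNg_6h replicate 3), and at 1 h 60, with a range of 15 to 174 (the lowest without unstimulated replicate 1). For 24 h against 6 h they numbered 2366 and at least 1403, for 24 h against 1 h 2707 and at least 1650, and for 6 h against 1 h 14, with a range of 8 to 40. Same-numbered libraries did not deviate together (r from -0.066 to 0.062 over 18 pairs), so the numbers were not used as pairs. With the replicate block, 1, 0, 0, 1, 2 and 0 of the 6 genes were called at 24 h, 6 h and 1 h against unstimulated cells, at 24 h against 6 h and 1 h, and at 6 h against 1 h, as without it. With 3 libraries a group, the 24 h intervals of the 6 genes span folds of 0.826 to 1.46, and they cover the spread between these libraries only.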
